A study of Mus musculus with 4 samples.

Results

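The mouse genome holds 39 Hox genes, which encode homeodomain transcription factors and lie in the Hoxa, Hoxb, Hoxc and Hoxd clusters. All 39 were found by symbol among the 53465 genes of a table of polysome-associated mRNA. The libraries came from STHdh cells, immortalized striatal lines of C57/BL6 mice that carry a knock-in Htt exon 1. Control cells (STHdhQ7/Q7) carry 7 glutamine repeats, written Glu in the labels, and HD-homo cells (STHdhQ111/Q111) carry 111. Harringtonine (2 µg/ml, 2 min) stopped new initiation while elongating ribosomes ran off, cycloheximide followed, and the mRNA that remained in polysomes was sequenced (PS-RRA-mRNA-Seq) in 2 control and 2 HD-homo libraries. The libraries of a group are independent experiments on the same line, so the repeat and other differences between the lines cannot be told apart. The comparison asks which mRNAs were more or less abundant in HD-homo polysomes, and no total RNA of these samples was analysed here.

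Hox genes are numbered 1 to 13 along a cluster, and genes of the same number in different clusters are paralogs. All members of a mouse cluster are transcribed in the same direction, so that gene 1 lies at the 3′ end and gene 13 at the 5′ end. In the embryo the 3′ genes are switched on first and in the hindbrain and neck, and the 5′ genes later and towards the tail. Retinoic acid and Cdx proteins open the clusters, Polycomb proteins keep them silent, and the forebrain, of which the striatum is a part, normally expresses no Hox gene.

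The libraries held 12372090 to 15472808 counts, and Hox genes gave 4300 and 4406 counts in control and 4785 and 5290 in HD-homo. Libraries of a group differed by more than sampling noise (chi-square per gene 29.0 and 30.5). As a check of the labelled cell type, the dopamine receptor genes Drd1 and Drd2 were at 0 counts in all 4 libraries. Of 10 striatal projection neuron markers 8 had a count, and their summed level was 5.72 and 4.002 CPM (counts per 1000000 library counts, with library sizes adjusted by TMM, the trimmed mean of M-values) in control and 3.65 and 7.95 in HD-homo, with overlap. In edgeR Adora2a was lower in HD-homo (log2 fold change -2.66, and from -3.41 to -2.14 with any library left out). Ppp1r1b was higher in edgeR, a call lost without HD-homo replicate 2 and in DESeq2 (adjusted p = 0.130). All 3 neural progenitor markers were lower in HD-homo, as were 10.9% of all tested genes. Of 7 tested mesenchymal markers Col1a1, Col1a2, Pdgfra and Dcn were higher, as were 10.4% of all tested genes. The 3 progenitor markers Sox2, Nes and Pax6 summed to 185 and 252 CPM in control and 6.61 and 6.71 in HD-homo, and the 8 mesenchymal markers to 1056 and 1982 CPM in control and 5510 and 5326 in HD-homo. None of the 3 endothelial, 4 spinal cord and hindbrain or 3 microglia markers had enough counts to be tested. Their sums were between 0 and 0.44 CPM in every library, with Isl1, Chat, Aif1 and Cx3cr1 at 0. The part of such differences between the lines in the Hox values was not tested, and fewer cells of a type and less mRNA per cell cannot be told apart in bulk samples.

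Of the 39 Hox genes, 33 had at least 1 count and 20 passed the filter on low counts. In HD-homo polysomes 5 of these 20 were higher than in control, 7 were lower and 8 passed the test in neither direction. A gene was called at an adjusted p under 0.05 in the quasi-likelihood test of edgeR, adjusted by Benjamini-Hochberg over all 12961 tested genes, of which 10.4% were higher and 10.9% were lower. A gene near 0 counts in one group passes the filter only if the other group is high, so the shares among tested Hox genes are a description and not support. The median log2 fold change of the 20 was 0.04, against 0.0017 over all tested genes. Where at least 10 counts were asked of every library, 10 Hox genes were tested and only Hoxb2 (higher) and Hoxb8 (lower) were called. With any library left out 5 were higher, and 3 were lower without control replicate 1 or HD-homo replicate 2. Among those called, Hoxa3, Hoxa4 and Hoxb2 were higher, gene 9 of Hoxa and genes 8 and 13 of Hoxb were lower, and in Hoxc genes 4, 6, 8 and 9 were lower while gene 13 was higher.

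**Figure D1:**
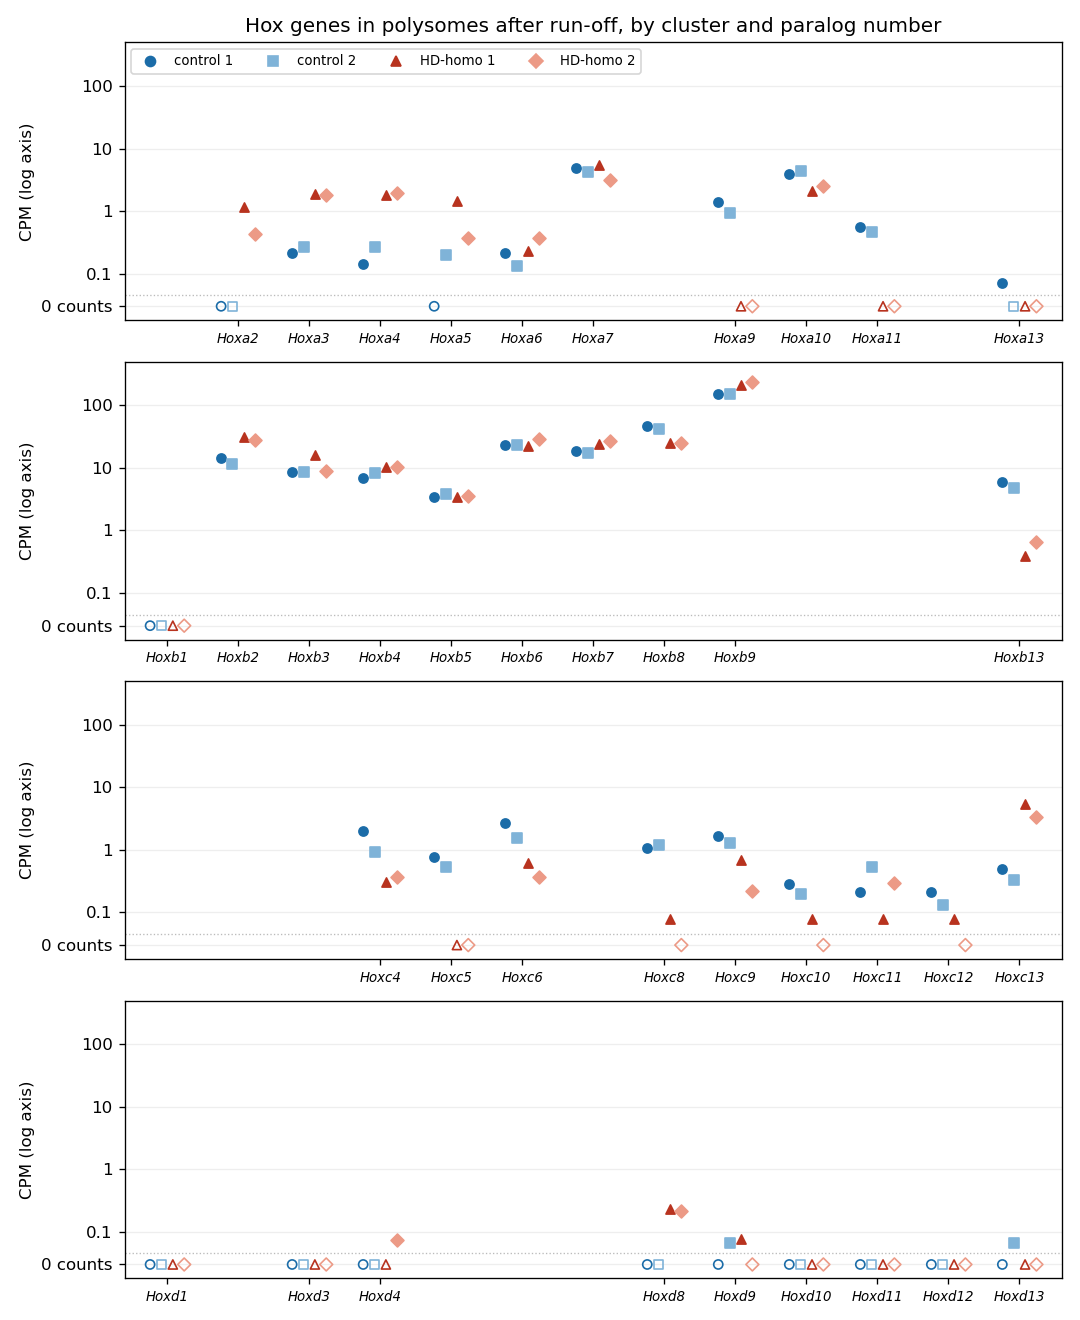
Level of Hox genes in each library, as TMM-scaled CPM on a log axis, with open symbols on the bottom line for libraries with 0 counts. Hoxb held the highest levels in both groups, Hoxa2 to Hoxa5 lay higher in both HD-homo libraries than in both control libraries, and Hoxd was at or near 0.

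Promoter sequences are shown for the called genes that have one, and a microRNA and its site for Hoxb8. Promoter windows from RefSeq (GRCm38.p6, 250 bases before to 50 after a start) matched 22 of the 39 genes, and 4 of the 12 called genes are among them, Hoxa3 (higher) and Hoxa9, Hoxb8 and Hoxc4 (lower). Capitals mark matches on either strand to CCAAT (the CCAAT box), TATAAA (the TATA box), TGATTNAT (a PBX-HOX pair) or TTTATNG (the type bound by posterior HOX and CDX proteins).
Hoxa3 promoter, chr6:52213018-52213317 (- strand): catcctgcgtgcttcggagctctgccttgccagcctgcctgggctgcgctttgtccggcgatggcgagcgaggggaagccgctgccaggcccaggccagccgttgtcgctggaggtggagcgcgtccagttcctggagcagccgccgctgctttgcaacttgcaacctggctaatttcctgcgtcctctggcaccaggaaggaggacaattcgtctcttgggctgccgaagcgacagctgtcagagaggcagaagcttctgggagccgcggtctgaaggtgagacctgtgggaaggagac
Hoxa9 promoter, chr6:52227321-52227620 (- strand): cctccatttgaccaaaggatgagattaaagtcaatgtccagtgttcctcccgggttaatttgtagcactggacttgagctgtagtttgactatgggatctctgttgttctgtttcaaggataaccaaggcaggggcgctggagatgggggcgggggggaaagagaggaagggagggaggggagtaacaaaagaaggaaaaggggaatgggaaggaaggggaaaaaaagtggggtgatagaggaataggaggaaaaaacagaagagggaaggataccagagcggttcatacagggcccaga
Hoxb8 promoter, chr11:96281655-96281954 (+ strand): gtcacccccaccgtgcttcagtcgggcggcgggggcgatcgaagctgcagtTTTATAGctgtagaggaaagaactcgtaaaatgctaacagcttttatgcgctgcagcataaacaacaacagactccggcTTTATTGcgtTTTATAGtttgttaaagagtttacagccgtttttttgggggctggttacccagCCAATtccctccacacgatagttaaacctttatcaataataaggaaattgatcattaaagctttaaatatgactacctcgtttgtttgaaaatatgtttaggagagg
Hoxc4 promoter, chr15:103034145-103034444 (+ strand): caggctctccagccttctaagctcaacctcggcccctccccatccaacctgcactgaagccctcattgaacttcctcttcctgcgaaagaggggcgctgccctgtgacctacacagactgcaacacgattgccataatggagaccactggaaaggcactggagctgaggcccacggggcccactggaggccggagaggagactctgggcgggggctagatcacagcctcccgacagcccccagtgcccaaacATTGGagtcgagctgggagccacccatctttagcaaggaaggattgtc
The starts of the Hoxa3, Hoxa9 and Hoxc4 windows lie inside longer GENCODE spans of these genes. The windows of Hoxa3 and Hoxa9 held none of these letters, and that of Hoxc4 held 1 CCAAT. The Hoxb8 window held 3 matches to TTTATNG, of which the 2 that read TTTATAG contain the TATA box read on the other strand, and 1 CCAAT. A match to TTTATNG was in 10.9% of all promoter windows and in 2 of 24 Hox windows, those of Hoxb8 and Hoxd4. CCAAT was in 37.4% of all windows and 15 Hox windows, TATAAA in 13.6% and 4, and TGATTNAT in 3.22% and 2, those of Hoxa2 and Hoxd11. These are matches of letters, not tested sites.

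Hoxb8 also carries a site for the microRNA miR-196a, which is encoded within the Hoxb and Hoxc clusters and is known to direct cleavage of Hoxb8 mRNA in the mouse embryo. The mature sequence (RefSeq, GRCm38.p6) and the site in the 3′ UTR of Hoxb8 (GENCODE M21, GRCm38) are shown with the seed, bases 2 to 8 of the microRNA, and the bases opposite it in capitals.
miR-196a-5p, chr11:96265187-96265208 (+ strand): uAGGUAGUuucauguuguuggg
site in Hoxb8, chr11:96284888-96284909 (+ strand): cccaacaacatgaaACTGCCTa
All 22 bases of miR-196a pair with this site without a gap, 21 as Watson-Crick pairs and 1 as a G:U pair in the seed. Of 21901 coding genes only Hoxb8 and Rps6ka2 held a site that pairs at every base when G:U pairs are allowed, and 16.7% held an exact match to the seed. Mature microRNA is not captured by poly(A) selection. The Mir196a-1 locus, between Hoxb9 and Hoxb13, had 8 and 7 counts in control and 11 and 5 in HD-homo, and Mir196a-2 and Mir196b were at 0 in all 4 libraries.

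Genes of the 3′ part of Hoxa were nearly absent from control polysomes and present in HD-homo polysomes. Summed over Hoxa2 to Hoxa5, the level was 0.35 and 0.72 CPM in the control libraries and 6.30 and 4.60 CPM in the HD-homo libraries, and the groups did not overlap. The cluster lies on the minus strand of chromosome 6 (GRCm38).

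Hoxa3, needed for the thymus and parathyroid, had 3 and 4 counts in control and 24 and 25 in HD-homo, which gave a log2 fold change of 2.91 (SE, standard error, 0.52, adjusted p = 9.71e-04, edgeR). Hoxa4, which acts in the neck vertebrae, had 2 and 4 counts in control and 23 and 27 in HD-homo, which gave a log2 fold change of 3.15 (SE 0.55, adjusted p = 7.55e-04, edgeR). The groups of both genes were far apart and libraries within a group were alike. Of the exon bases of Hoxa3 25.4% lie opposite exons of antisense genes such as Hoxaas2 and Hoxaas3, and of those of Hoxa4 16%. The strand setting of the counting is not given in the sources used here, so reads of a gene and of its antisense partner cannot be told apart. Of the 40-base stretches of Hoxa3 mRNA 7.82% also occur in other genes, against 0 for Hoxa4.

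Hoxa2 and Hoxa5 had too few counts to be tested. Hoxa2, which sets the identity of the second pharyngeal arch, had 0 counts in both control libraries and 15 and 6 in HD-homo. Of the 40-base stretches of Hoxa2 mRNA 13.2% also occur in another gene, Gm28308. In HD-homo Hoxa2 was higher by at least 7.74-fold against a floor of 3 counts over the control group. This bound became 4.02 without control replicate 1, 3.73 without control replicate 2, 4.29 without HD-homo replicate 1 and 11.4 when replicate 2 was left out, with the floor then set over the libraries that remained. Hoxa5, which acts in lung development, had 0 and 3 counts in control and 19 and 5 in HD-homo. Its ratio was 8.85 (95% counting interval 2.69 to 45.9) over all libraries, 4.59 without control replicate 1, at least 4.26 without control replicate 2, 3.57 without HD-homo replicate 1 and 14.5 when replicate 2 was left out. Both HD-homo libraries of each gene lay above both control libraries, but HD-homo replicate 2 held few counts. Without a filter on low counts edgeR called both higher, and DESeq2 called Hoxa2 (adjusted p = 0.0147) and not Hoxa5 (adjusted p = 0.136).

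In the middle of Hoxa no gene passed the test. Hoxa7 had 70 and 65 counts in control and 70 and 43 in HD-homo, and the groups overlapped (log2 fold change -0.11, SE 0.34, adjusted p = 0.877, edgeR). The sign of this value turned without control replicate 1 or HD-homo replicate 2. Of the exon bases of Hoxa7 20.4% lie opposite Hoxaas3. Hoxa6 was not tested, with 3 and 2 counts in control and 3 and 5 in HD-homo.

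The 5′ genes of Hoxa were lower in HD-homo or did not pass the test. Hoxa9, known for its role in blood progenitors and leukaemia, had 20 and 14 counts in control and 0 in both HD-homo libraries. It was at least 10.2-fold lower in HD-homo (adjusted p = 7.34e-04, edgeR), and the bound became 5.28 when HD-homo replicate 1 was left out and 4.96 when replicate 2 was. Hoxa11, which acts in the limb and uterus, was also at 0 in both HD-homo libraries, with 8 and 7 counts in control. It was at least 4.52-fold lower in HD-homo (a bound of 2.33 when HD-homo replicate 1 was left out and 2.19 when replicate 2 was), but had too few counts to be tested. Without a filter on low counts edgeR called Hoxa11 lower (adjusted p = 0.0046), and DESeq2 did not (adjusted p = 0.0759). Hoxa10 lies between Hoxa9 and Hoxa11 and was present in all libraries, with 56 and 66 counts in control and 27 and 35 in HD-homo. Both HD-homo libraries were below both control libraries, and the log2 fold change of -0.83 (SE 0.33) missed the threshold (adjusted p = 0.103, edgeR). Hoxa13 had 1 count in all. Summed over Hoxa9 to Hoxa13 the level was 6.01 and 5.71 CPM in control and 2.10 and 2.55 in HD-homo, opposite in direction to the 3′ genes of the same cluster. Hoxa10, which was not called, was most of this sum in control (mean 4.14 CPM) and all of it in HD-homo (mean 2.33 CPM).

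**Figure D2:**
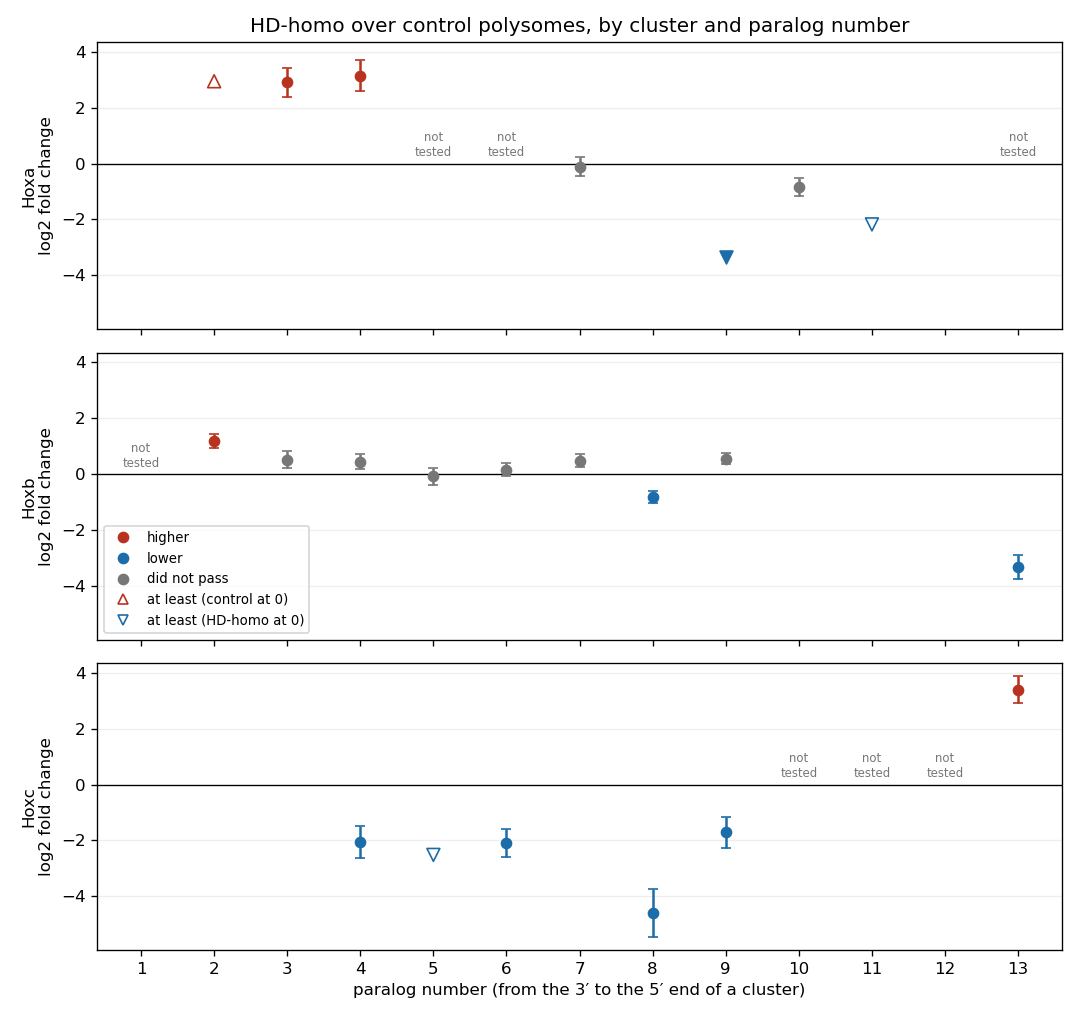
Log2 fold change of HD-homo over control for the genes of Hoxa, Hoxb and Hoxc by paralog number, with bars of 1 standard error and coloured by the edgeR call at an adjusted p under 0.05. Triangles give lower bounds on the size of the difference for genes at 0 counts in one group, filled for Hoxa9, which was tested, and in Hoxa the values run from 2.91 and 3.15 at genes 3 and 4 to bounds below 0 at genes 9 and 11.

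Hoxb gave most Hox counts of both lines. Its summed level was 283 and 271 CPM in control and 347 and 368 in HD-homo, of 304 and 289 CPM in control and 372 and 386 in HD-homo over all Hox genes. The cluster spans 174 kb of chromosome 11 (GRCm38, 96194316 to 96368256, plus strand). All of its members but Hoxb1, which was at 0 in all 4 libraries, were tested. Of those tested, 1 was higher and 2 were lower (10.4% and 10.9% of all tested genes), and 6 passed in neither direction.

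Hoxb9, a thoracic gene, was the most abundant Hox gene in every library. Per kilobase of exon it reached 59.2 ± 0.70 CPM per kb in control (SD, n = 2) and 87.1 ± 5.88 CPM per kb in HD-homo, and its mean was above that of 92.5% of tested genes. Hoxb9 had 2174 and 2303 counts in control and 2748 and 3221 in HD-homo. Both HD-homo libraries were above both control libraries, and the log2 fold change of 0.56 (SE 0.20) missed the threshold (adjusted p = 0.0639, edgeR). It passed with library totals as the only scaling (adjusted p = 0.0466, edgeR). Without Hoxb9 the summed Hox level was 150 and 138 CPM in control and 158 and 151 in HD-homo.

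In control the next levels per kb were 17.0 ± 1.19 CPM for Hoxb8, 11.9 ± 0.18 for Hoxb6 and 11.7 ± 0.77 for Hoxb7 (SD, n = 2), and the last pair did not differ beyond its spread. In HD-homo the order was Hoxb7 (16.4 ± 1.37 CPM per kb), Hoxb6 (13.3 ± 2.41) and Hoxb8 (9.61 ± 0.046). Hoxb8, which acts in the spinal cord and in a lineage of microglia, thus stood next to Hoxb9 in control and below Hoxb6 and Hoxb7 in HD-homo. In HD-homo no library of Hoxb6 reached those of Hoxb7, by less than their summed SDs. All other Hox genes were below 4 CPM per kb in control, and of these Hoxb2, called higher, reached 8.65 ± 0.69 CPM per kb in HD-homo.

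Hoxb8 had 666 and 650 counts in control and 327 and 346 in HD-homo, and both HD-homo libraries were far below both control libraries. Its level fell from 44.8 ± 3.13 to 25.3 ± 0.12 CPM, a log2 fold change of -0.82 (SE 0.22, adjusted p = 0.0154, edgeR). The value stayed between -0.89 and -0.74 when any library was left out, but in edgeR the call held only when control replicate 2 was left out (adjusted p = 0.0860 without control replicate 1, 0.0646 without HD-homo replicate 1 and 0.0595 without the other HD-homo library). The genes on either side of it, Hoxb7 and Hoxb9, were not lower in any HD-homo library.

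Hoxb13, the last gene of the cluster and known for its role in the prostate and tail, had 84 and 73 counts in control and 5 and 9 in HD-homo. Its level was 5.36 ± 0.81 CPM in control and 0.52 ± 0.19 in HD-homo. The log2 fold change was -3.33 (SE 0.42, adjusted p = 5.65e-05, edgeR). Every HD-homo library was below every control library. Of the tested Hox genes, Hoxb13 had the lowest adjusted p.

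At the 3′ end, Hoxb2, which acts in the hindbrain and facial nerve, had 207 and 179 counts in control and 410 and 390 in HD-homo, with no overlap. Its level rose from 13.2 ± 2.04 to 30.2 ± 2.41 CPM, a log2 fold change of 1.19 (SE 0.24, adjusted p = 0.00261, edgeR), and the call held when any library was left out. Of its exon bases 27.3% lie opposite Hoxb3os.

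The other Hoxb genes did not pass the test. Hoxb3, another hindbrain gene, had 122 and 131 counts in control and 204 and 121 in HD-homo. Its log2 fold change of 0.52 (SE 0.30, adjusted p = 0.286, edgeR) rests on HD-homo replicate 1 (0.05 without it). Of the exon bases of Hoxb3 52.9% lie opposite Hoxb3os. Hoxb4, known for its effect on blood stem cells, had 98 and 125 counts in control and 132 and 143 in HD-homo (log2 fold change 0.45, SE 0.26, adjusted p = 0.284, edgeR). Hoxb7 had 268 and 263 counts in control and 307 and 368 in HD-homo (log2 fold change 0.49, SE 0.23, adjusted p = 0.181, edgeR). For Hoxb4 and Hoxb7 both HD-homo libraries were higher in CPM than both control libraries, by less than the test could separate. Hoxb5 had 49 and 59 counts in control and 44 and 48 in HD-homo (log2 fold change -0.08, SE 0.31, adjusted p = 0.896, edgeR). Hoxb6 had 334 and 352 counts in control and 292 and 403 in HD-homo (log2 fold change 0.16, SE 0.24, adjusted p = 0.722, edgeR), and its sign turned without HD-homo replicate 2. The libraries of the groups overlapped for both.

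Summed by position, genes 1 to 5 of Hoxb lay at 33.6 and 32.4 CPM in control and 61.4 and 51.2 in HD-homo, genes 6 to 8 at 89.6 and 83.0 in control and 72.0 and 81.5 in HD-homo, and genes 9 to 13 at 160 and 156 in control and 214 and 236 in HD-homo. The groups did not overlap in any of these sums. The first sum rested on Hoxb2 and the last on Hoxb9. In the middle sum the groups lay close, at 83.0 and 81.5 CPM in the nearest libraries. Of its genes only Hoxb8 was lower in both HD-homo libraries. The mean levels of Hoxb6 (23.3 CPM in control and 26.0 in HD-homo) and Hoxb7 (18.1 and 25.4) were higher in HD-homo.

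**Figure D3:**
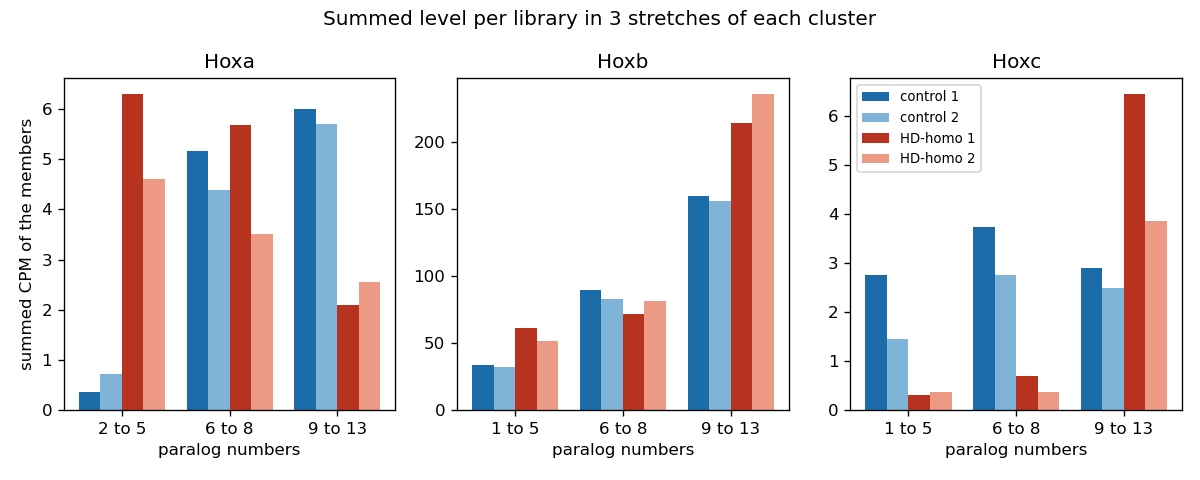
Summed TMM-scaled CPM per library over genes 1 to 5 (in Hoxa 2 to 5), 6 to 8 and 9 to 13 of Hoxa, Hoxb and Hoxc, with a separate axis from 0 for each cluster. The HD-homo libraries are higher in the first stretch of Hoxa and Hoxb, lower in genes 9 to 13 of Hoxa and genes 1 to 8 of Hoxc, and higher in genes 9 to 13 of Hoxb, which are mostly Hoxb9, and of Hoxc, where Hoxc13 was the main part in HD-homo and Hoxc9 in control. Genes 9 to 13 of Hoxa are mostly Hoxa10, which was not called.

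In Hoxc the 3′ genes were lower in HD-homo and the last gene was higher. All 5 tested genes were called, 4 lower and 1 higher (10.9% and 10.4% of all tested genes). These genes had few counts in one group and passed the filter through the other, so this share is a description. Where at least 10 counts were asked of every library, no Hoxc gene was tested. The cluster spans 116 kb of chromosome 15 (GRCm38, 102921103 to 103036852, plus strand), and its summed level was 9.40 and 6.69 CPM in control and 7.46 and 4.60 in HD-homo, with overlap. Over genes 4 to 8 the groups did not overlap. Hoxc4 and Hoxc5 together were at 2.76 and 1.44 CPM in control and 0.31 and 0.36 in HD-homo, and Hoxc6 and Hoxc8 at 3.75 and 2.76 CPM in control and 0.70 and 0.36 in HD-homo.

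Hoxc8, which sets motor neuron identity at forelimb level, had 15 and 18 counts in control and 1 and 0 in HD-homo. The control to HD-homo ratio was 29.8 (95% counting interval 4.99 to 1214; adjusted p = 0.00132, edgeR), at least 5.13 without HD-homo replicate 1, which held the only count, and 14.4 without HD-homo replicate 2. Hoxc6, expressed at the same level of the axis, had 38 and 24 counts in control and 8 and 5 in HD-homo, which gave a log2 fold change of -2.09 (SE 0.50, adjusted p = 0.00789, edgeR). For both genes every HD-homo library was below every control library. The call of Hoxc6 was lost without control replicate 1 (adjusted p = 0.0613, edgeR) or HD-homo replicate 2 (0.0536, edgeR) and in DESeq2 (0.0540).

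Hoxc4 had 28 and 14 counts in control and 4 and 5 in HD-homo, which gave a log2 fold change of -2.06 (SE 0.58, adjusted p = 0.0207, edgeR). Control replicate 1 had more than control replicate 2, and without it the log2 fold change was -1.41 and the call was lost (adjusted p = 0.237, edgeR). It was also lost without HD-homo replicate 1 (0.0825, edgeR) or HD-homo replicate 2 (0.0573, edgeR) and in DESeq2 (adjusted p = 0.140). Hoxc9, which sets thoracic motor neuron identity, had 24 and 20 counts in control and 9 and 3 in HD-homo, which gave a log2 fold change of -1.71 (SE 0.55, adjusted p = 0.0404, edgeR). Its value was -2.72 when HD-homo replicate 1 was left out and -1.09 when replicate 2 was. The call was lost without control replicate 1 (adjusted p = 0.125, edgeR) or HD-homo replicate 2 (0.279, edgeR), with library totals as the only scaling (0.0596, edgeR) and in DESeq2 (0.232). Hoxc5 was not tested and had 11 and 8 counts in control and 0 in both HD-homo libraries. It was at least 5.73-fold lower in HD-homo (a bound of 2.95 when HD-homo replicate 1 was left out and 2.77 when replicate 2 was). Without a filter on low counts edgeR called it lower (adjusted p = 6.34e-04), and so did DESeq2 (adjusted p = 0.0355). Its annotated span runs from Hoxc10 past Hoxc6, and 4.23% of its 40-base stretches also occur in Hoxc10.

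Hoxc13, at the 5′ end, was the only Hoxc gene that was higher in HD-homo. It activates keratin genes of hair and nail, and had 7 and 5 counts in control and 71 and 46 in HD-homo. Its level rose from 0.41 ± 0.12 to 4.44 ± 1.53 CPM, a log2 fold change of 3.41 (SE 0.47, adjusted p = 1.12e-04, edgeR), and the call held when any library was left out. Its paralog Hoxb13 went the other way, and Hoxa13 and Hoxd13 had 1 count each. Hoxc10, Hoxc11 and Hoxc12 were not tested, with 2 to 8 counts per control library and 0 to 4 per HD-homo library.

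Hoxd was at or near 0 in both lines. Of its 9 genes 5 had no count and none was tested, and the whole cluster gave 0 and 2 counts in control and 4 in each HD-homo library. Hoxd8 had 3 counts in each HD-homo library and 0 in control, a difference of at least 2.21-fold (a bound of 1.15 when control replicate 1 was left out and 1.07 when replicate 2 was). The genes Hoxd4, Hoxd9 and Hoxd13 had 1 or 2 counts in all. Of the 40-base stretches of Hoxd3 and Hoxd4 60.7% and 47.9% occur in other genes, so reads of these genes could be split between them.

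Summed by paralog number over the clusters, both HD-homo sums were above both control sums for paralogs 2, 3, 4, 7 and 9 and below them for paralogs 8, 10, 11 and 12. Full separation of 2 against 2 libraries gives p = 0.33 in an exact permutation test, so this list is a description. Paralogs 11 had only 11 and 15 counts in control and 1 and 4 in HD-homo, and paralogs 12 had 3 and 2 against 1 and 0. Paralogs 2 summed to a mean of 13.2 CPM in control and 31.0 in HD-homo (n = 2), nearly all of it Hoxb2. Members of a paralog group did not always share a direction. Of paralogs 4 Hoxa4 was higher and Hoxc4 lower, of paralogs 13 Hoxc13 was higher and Hoxb13 lower, and of paralogs 9 Hoxa9 and Hoxc9 were lower while Hoxb9 did not pass the test. Both tested members of paralogs 8, Hoxb8 and Hoxc8, were lower, and the group summed to 46.0 ± 3.04 CPM in control and 25.6 ± 0.19 in HD-homo (SD, n = 2). Nearly all of this sum was Hoxb8, at 44.8 CPM in control and 25.3 in HD-homo. The untested Hoxd8 had counts in HD-homo only.

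Transcripts other than Hox genes within the clusters were looked up by position after the files were seen. Of 20 such genes inside Hoxa 7 had a count and 3 were tested. Gm15050, on the opposite strand within the span of Hoxa3, had 0 and 2 counts in control and 23 and 11 in HD-homo, a ratio of 18.8 (95% counting interval 4.82 to 162; adjusted p = 0.00308, edgeR). The ratio was 9.75 without control replicate 1, at least 6.04 without control replicate 2 and 11.8 without HD-homo replicate 1. The antisense RNA Hoxaas3 had 0 and 2 counts in control and 15 and 10 in HD-homo, a ratio of 13.8 (3.45 to 120; adjusted p = 0.00632, edgeR; 7.17 without control replicate 1, at least 4.44 without control replicate 2; adjusted p = 0.0664 in DESeq2). Hoxaas2 had 0 counts in both control libraries and 10 and 9 in HD-homo, at least 7.01-fold higher (a bound of 3.63 when control replicate 1 was left out and 3.37 when replicate 2 was). These RNAs lie on the opposite strand beyond Hoxa2, with the far end of Hoxaas3 opposite Hoxa7, and each HD-homo library held more of them than each control library. Hotairm1, known to be induced by retinoic acid, had 7 and 6 counts in control and 17 and 15 in HD-homo (log2 fold change 1.43, SE 0.50, adjusted p = 0.061, edgeR), with no overlap between groups. Gm27477, a short RNA between Hotairm1 and Hoxa2, had 2 and 3 counts in control and 18 and 7 in HD-homo and was not tested.

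In Hoxb 9 other genes lie between Hoxb1 and Hoxb13, of which 4 were tested. Hoxb3os, opposite Hoxb2 and Hoxb3, had 25 and 29 counts in control and 55 and 62 in HD-homo, which gave a log2 fold change of 1.26 (SE 0.33, adjusted p = 0.0149, edgeR). The call was lost without control replicate 1 (0.0614, edgeR) and in DESeq2 (0.0762). Gm27605, a short RNA on the opposite strand that lies near Hoxb13 without overlap, had 28 and 22 counts in control and 1 and 0 in HD-homo. The control to HD-homo ratio was 45.2 (95% counting interval 7.75 to 1821, adjusted p = 3.23e-04, edgeR). It was at least 7.77 without HD-homo replicate 1 and 21.9 when replicate 2 was left out. Hoxb3os and Hoxb2 were thus both higher, and Gm27605 and Hoxb13 both lower. The noncoding Gm53, between Hoxb13 and Hoxb9, had 221 and 236 counts in control and 257 and 311 in HD-homo (log2 fold change 0.46, SE 0.24, adjusted p = 0.224, edgeR) and did not pass the test. Of the antisense and noncoding transcripts listed by name, 17 of 20 were in the table, 9 were at 0 in all libraries, namely Hottip, Hoxd3os1, Haglr, Halr1, Mir10a, Mir10b, Mir196a-2, Mir196b and Mir615, and Hotair had 1 count.

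**Figure D4:**
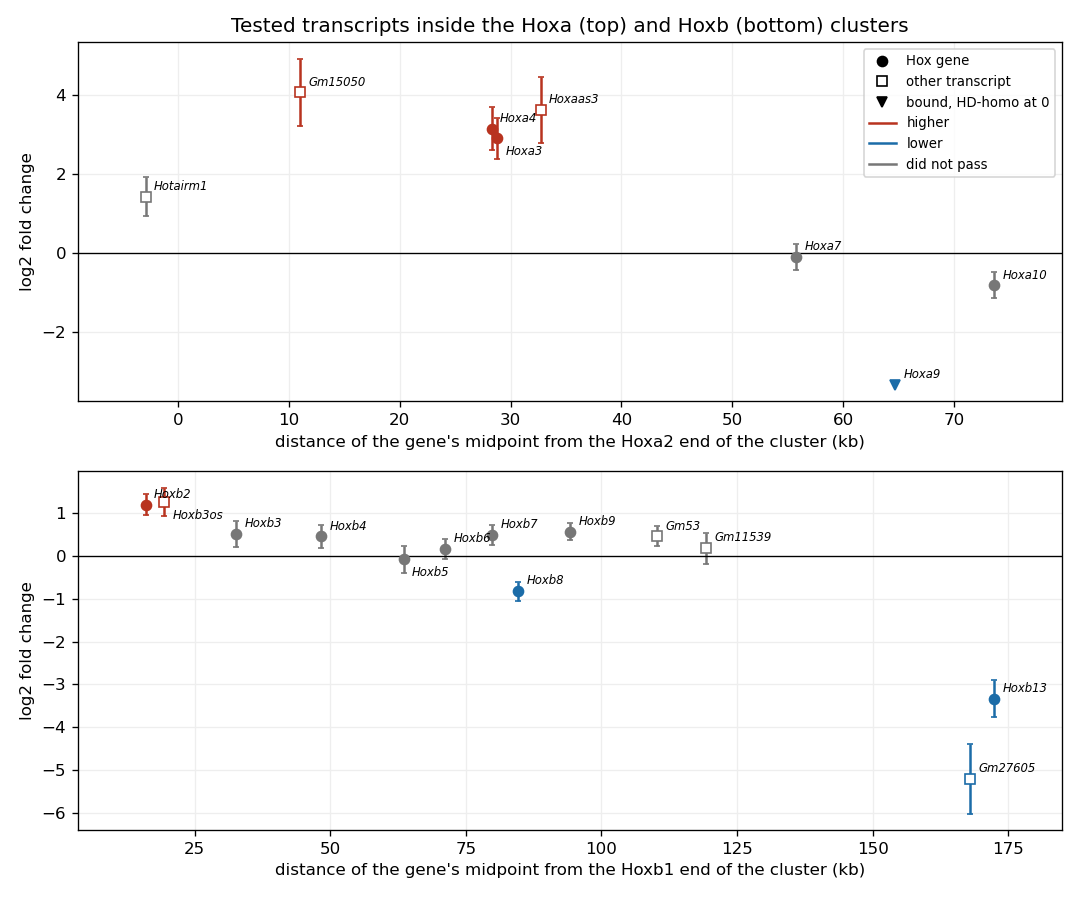
Log2 fold change of HD-homo over control for tested Hox genes (circles) and other tested transcripts (squares) of Hoxa and Hoxb against the distance of the gene's midpoint from the Hoxa2 or Hoxb1 end in kb, with bars of 1 standard error. Hoxaas3 lies high beside Hoxa3 and Hoxa4, Gm15050 high between them and Hoxa2, and Hoxb3os beside Hoxb2, while Gm27605 lies low beside Hoxb13.

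Of 18 tested genes that flank the clusters, of 23 in the table, none was higher and 1 was lower in edgeR, beside 10.4% and 10.9% of all tested genes. Their median log2 fold change was 0.11. Before adjustment, p was under 0.05 for 2 higher and 2 lower neighbours, and DESeq2 and limma-voom called as many in each direction as edgeR did. An edgeR fit with the replicate number as a block called 3 higher and 1 lower. Snx10, a sorting nexin gene beyond the 3′ end of Hoxa, was the lower one in the fit without a block. It had 297 and 320 counts in control and 166 and 146 in HD-homo (log2 fold change -0.83, SE 0.25, adjusted p = 0.0264, edgeR). Its call was lost without either control replicate or HD-homo replicate 2 (adjusted p from 0.0667 to 0.154, edgeR). The homeobox genes Evx1 and Evx2, which adjoin Hoxa13 and Hoxd13, were at 0 in all libraries.

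Among genes known to act upstream of Hox genes, the largest difference was in Cdx2, a caudal-type homeobox factor that activates trunk Hox genes in the embryo. Cdx2 had 506 and 467 counts in control and 2 and 1 in HD-homo, a control to HD-homo ratio of 293 (95% counting interval 100 to 1424; adjusted p = 3.07e-08, edgeR; 454 without HD-homo replicate 1). Control polysomes thus held Cdx2 mRNA and HD-homo polysomes nearly none. Its relatives Cdx1 and Cdx4 had 2 and 0 counts in all. Gdf11, a growth factor that acts on 5′ Hox genes of the trunk, had 417 and 286 counts in control and 155 and 74 in HD-homo, which gave a log2 fold change of -1.47 (SE 0.35, adjusted p = 0.00803, edgeR; -2.14 without HD-homo replicate 1).

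The upstream genes that were higher were Egr2 and Rxra. Egr2 (Krox20), a hindbrain factor that activates Hoxa2 and Hoxb2 in the mouse, had 234 and 135 counts in control and 958 and 498 in HD-homo. Its log2 fold change was 2.13 (SE 0.36, adjusted p = 6.14e-04, edgeR; 1.53 without HD-homo replicate 1), and the groups did not overlap although libraries within each differed. The retinoid receptor gene Rxra had 1145 and 945 counts in control and 1955 and 1778 in HD-homo (log2 fold change 0.98, SE 0.22, adjusted p = 0.00449, edgeR), a call lost without control replicate 2 (0.0661, edgeR). Of 17 upstream genes 9 were tested, of which these 2 were higher and 2 lower (10.4% and 10.9% of all tested genes), with a median log2 fold change of -0.02. Aldh1a2, which makes retinoic acid, and the retinoid receptor gene Rxrg were at 0 in all libraries.

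The TALE homeobox proteins bind DNA together with Hox proteins. All 9 of their genes were tested, and in edgeR none was higher (10.4% of all tested genes) and 2 were lower (10.9%). Their median log2 fold change was -0.37. Before adjustment, p was under 0.05 for 3 lower and 0 higher genes, and DESeq2 and limma-voom called as many in each direction as edgeR did. With the replicate block 3 were lower and 0 higher. Meis2, also a factor of the developing striatum, had 451 and 456 counts in control and 198 and 126 in HD-homo (log2 fold change -1.33, SE 0.28, adjusted p = 0.00289, edgeR). Meis3 had 149 and 146 counts in control and 56 and 34 in HD-homo (log2 fold change -1.56, SE 0.32, adjusted p = 0.00267, edgeR). Control libraries were alike and above both HD-homo libraries in both genes, and both calls held when any library was left out. The Pbx genes were present in all libraries and none passed the test.

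Polycomb and Trithorax proteins are the chromatin regulators of the clusters. Of 19 Polycomb genes none was higher and 1 was lower in edgeR, where 10.4% and 10.9% of all tested genes were. Their median log2 fold change was -0.12. Before adjustment, p was under 0.05 for 2 higher and 3 lower genes, and DESeq2 and limma-voom called as many in each direction as edgeR did. With the replicate block 2 were higher and 4 lower, and without a filter on low counts 0 were higher and 2 lower. Cbx2, a subunit that reads the H3K27 methyl mark, was the lower one in the fit with the default filter and no block. It had 415 and 497 counts in control and 160 and 278 in HD-homo (log2 fold change -0.92, SE 0.27, adjusted p = 0.0256, edgeR). Its call was lost without control replicate 2 (0.0566, edgeR) or HD-homo replicate 1 (-0.60, adjusted p = 0.218, edgeR). Of 11 Trithorax and H3K27 demethylase genes none was called by edgeR, DESeq2 or limma-voom, and before adjustment p was under 0.05 for 3 lower and 0 higher genes in edgeR. The median log2 fold change of these 11 was -0.30. With the replicate block 1 of these genes was higher and 3 were lower. Without control replicate 1 or HD-homo replicate 2, 1 of them, the demethylase gene Kdm6b, was higher (log2 fold change 0.98 and 0.96).

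**Figure D5:**
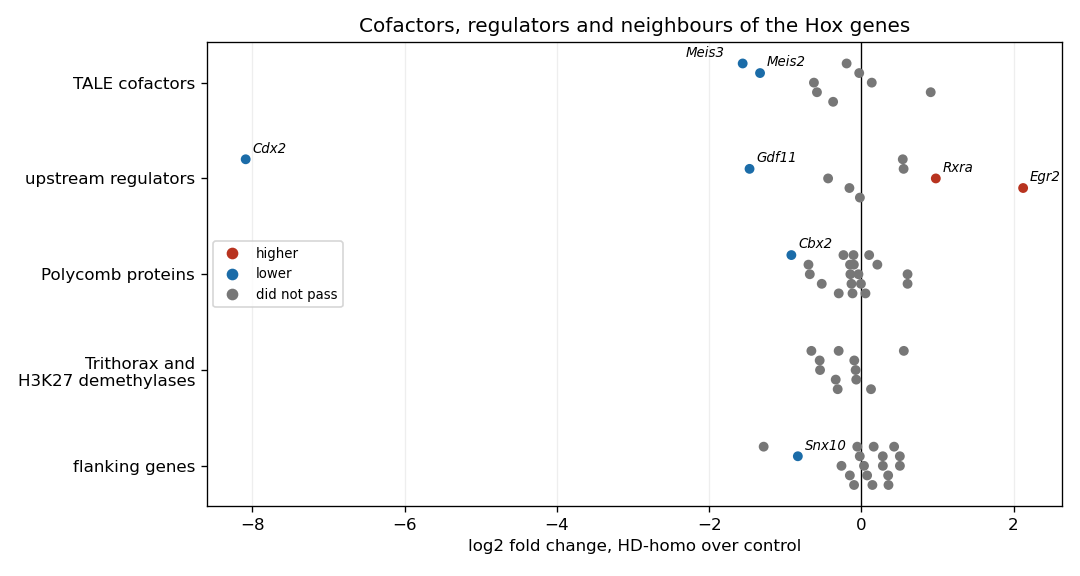
Log2 fold change of HD-homo over control for the tested members of 5 gene lists, coloured by the edgeR call at an adjusted p under 0.05, with called genes named. Cdx2 lies far below the others at about -8, while most Polycomb, Trithorax and flanking genes lie within 1 of 0.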

How the data were processed

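The authors trimmed adapters (cutadapt), discarded rRNA and tRNA reads (Bowtie 1.1.2) and assigned the others to genes (RSEM 1.3.0) on GRCm38.p5 (mm10), per the labels and methods, and deposited 1 count for each gene in each library. The counts are whole numbers, and whether RSEM estimates were rounded is not given in the sources used here. A deposited table of normalized values was not used. RNA was extracted from polysome fractions and poly(A)-selected for directional libraries, while the labels name the molecule total RNA. The depth of 12372090 to 15472808 counts per library limits low genes most, and with 2 libraries a group an exact permutation test cannot go below p = 0.33.

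The Hox genes were read from 1 fit on the whole table in edgeR 4.0.16 (R 4.3.3) with its default filter on low counts, which kept 12961 genes, TMM scaling, the quasi-likelihood test and Benjamini-Hochberg adjustment. SEs were taken from the F statistic and can be too small where counts are few. Where a group was at 0 the fold is a bound against 3 counts, and ratios with 1 to 3 counts in a group carry exact 95% intervals, both for counting error only. Levels per kb used the exon length of GENCODE M21 (GRCm38), which matched all 39 Hox genes. Alternatives were DESeq2 1.42.0, limma-voom (limma 3.58.1), other scalings and filters, a fold threshold, a replicate block and each library left out. Tested Hox genes are named, although some genes are not reported here, and of other lists up to 4 called genes with the lowest p in each direction and genes at 0. The members and lists were chosen with earlier results of these data known.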

Additional observations from a re-analysis of the deposited data

How the results depend on the processing

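The counts of called Hox genes moved most with the filter on low counts. With at least 10 counts in every library 1 Hox gene was higher and 1 lower (10 Hox genes tested), and over all genes 815 were higher and 883 lower. Without a filter 7 Hox genes were higher and 9 lower, the 12 called with the default filter and 4 more. DESeq2 called 6 higher and 5 lower, 9 of them among the 12, and limma-voom called the same 12. A fold threshold of 1 on the log2 scale left 11 of the 12, and library totals as the only scaling 11 of the 12 and Hoxb9. With each library left out in turn, 5 Hox genes were higher each time and 3 to 7 were lower. Over all genes 1150 to 1235 were then higher and 1200 to 1295 lower. Same-numbered libraries share only a number in the labels, although their deviations correlated (0.477, 2 pairs only). With the replicate block 7 Hox genes were higher and 8 lower, the 12 and Hoxa10, Hoxb7 and Hoxb9, and over all genes 2126 were higher and 2350 lower. The sign turned for Hoxa7 with a library left out (log2 fold changes from -0.54 to 0.24) and for Hoxb6 (log2 fold changes from -0.041 to 0.34), neither of which was called in any of these fits, and the cause was not tested. Genes with few counts in both groups, among them all of Hoxd, could not be compared at this depth.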
